A study of Mus musculus with 28 samples.

Results

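The comparison described here set hearts of the del337TR strain against hearts of the Control strain over both treatments at once, and asked which transcripts differed the same way without and with WY14643. It used all 28 of the 28 arrays of the series, chosen by their strain label alone, with 14 del337TR arrays and 14 Control arrays. There were 7 arrays of untreated del337TR mice, 7 of untreated Control mice, 7 of del337TR mice given WY14643 (spelled del337 with WY14643 in the labels) and 7 of Control mice given WY14643. WY14643 is a synthetic activator of the nuclear receptor PPARalpha. The series title names resistance to thyroid hormone, and the strain name points to a deletion in a thyroid hormone receptor. The labels name no other allele or agent, and none that all groups share. They give no dose, duration, age or sex, and do not say which receptor gene carries the deletion or whether a promoter or Cre drives it. The design text speaks of individuals in each group, and nothing else says how the animals were related, so p-values measure the spread between these 28 samples.

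Thyroid hormone acts on the heart through the nuclear receptors encoded by Thra and Thrb, which sit on DNA with retinoid X receptors and switch genes on when triiodothyronine binds them. In the rodent ventricle the hormone keeps the alpha myosin heavy chain high and the beta chain low, and raises the calcium pump, several potassium channels and genes of fuel use. In resistance to thyroid hormone a mutant receptor binds the hormone poorly and can hold back the normal receptors. PPARalpha pairs with the same retinoid X partners and turns on genes of fatty acid uptake and oxidation, so both pathways draw on a shared pool of partners.

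Each array held total RNA from frozen heart tissue. Expression is given as signal, the scaled brightness of a probe set, which is a group of short probes that read 1 transcript. Differences are del337TR minus Control on the log2 scale with limma's standard error, averaged over both treatments unless stated. Median signals per array ran from 60 to 77.8. The tissue label was met by its defining markers. The summed signal of 8 cardiomyocyte markers had medians of 103150 in untreated del337TR, against 103040 in untreated Control, and of 117480 in del337TR with WY14643, against 106200 in Control with WY14643. By Xist and Y-linked signals each strain held 5 female and 9 male hearts. Within treatments the sexes were uneven, with 4 of 7 female in untreated del337TR, against 2 of 7 in untreated Control, and 1 of 7 in del337TR with WY14643, against 3 of 7 in Control with WY14643. Atrial RNA varied widely, with summed signals of 7 atrial markers between 9659 and 52406 on del337TR arrays and between 4071 and 35346 on Control arrays.

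On several heart genes 5 Control arrays stood apart from every other array, and much of what follows depends on them. They were replicate 7 of the untreated Controls and replicates 1, 4, 6 and 7 of the Controls with WY14643. The signal of Myh7, the slow beta myosin heavy chain, was 14572 to 24981 on the 14 del337TR arrays, against 3103 to 6007 on these 5 Control arrays and 14554 to 20992 on the other 9. Ccn2, a matricellular growth factor, split the same arrays, with 4591 to 10847 on del337TR arrays, against 1095 to 1684 on the 5 Control arrays and 3791 to 8894 on the other Controls. Thrsp, a thyroid hormone responsive lipogenic protein, stood the other way, with 428 to 846 on del337TR arrays, against 1261 to 1970 on the 5 arrays and 665 to 903 on the other Controls. Kcnd2, the pore subunit of the transient outward potassium current, had 269 to 565 on del337TR arrays, against 795 to 1123 on the 5 arrays and 328 to 571 on the other Controls. On these 4 genes the other 9 Control arrays overlapped with the del337TR arrays. The labels give no reason for the split, and whether it came from the animals, their handling or the labels was not tested. The 5 arrays were picked by their Myh7 signal after the data were seen, so values given without them describe the remaining 23 arrays and do not test the strain.

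No probe set differed between the strains past the threshold. Of 45037 probe sets, 0 (0%) had a limma p below 0.05 after Benjamini-Hochberg adjustment over the array, and the lowest adjusted p was 0.342. Without adjustment 3427 probe sets (7.61%) had a limma p under 0.05, of which 1811 were higher in del337TR (4.02%) and 1616 lower (3.59%). Under each of the other settings tried the count after adjustment was also 0, except that it was 1 without replicate 5 of del337TR with WY14643. The signals of the 14 del337TR and 14 Control arrays were free of overlap for 0 probe sets (0%). Leaving out the 5 Control arrays that stood apart, 2132 probe sets had an unadjusted p under 0.05, and the lowest adjusted p was 0.641.

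The difference between strains was read separately in each treatment. These differences share no array, but their limma p-values share 1 estimate of the spread taken from all 28 arrays. Without WY14643 limma called 1 probe set (0.00222%), that of Slfn3, a call that was lost on leaving out any 1 of 23 of the 28 arrays, and with the replicate block or the sex covariate, and 1806 (4.01%) had an unadjusted p under 0.05. With WY14643 it called 0 (0%), and 3991 (8.86%) had an unadjusted p under 0.05. The interaction of strain and WY14643 passed for 0 probe sets (0%), and 2207 (4.9%) had an unadjusted p under 0.05. Strain values were free of overlap for 31 probe sets without WY14643 (0.0688%) and for 48 with it (0.107%), but for 0 in both (0%). On the 23 arrays left without those 5 Controls, limma called 0 probe sets without WY14643 and 5 with it, where 3 Control arrays remained.

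Over all probe sets the strain difference seen with WY14643 was only weakly related to that seen without it. Pearson's r across probe sets was 0.0482 and Spearman's rho 0.0655, and 53% of probe sets had the same sign in both. Probe sets are not independent replicates, and all readings of a treatment share its arrays. For the 27022 probe sets above the 40th percentile of mean signal, which is a signal of 45.3, r was 0.0956, rho 0.125 and the same sign held for 54.6%. Among the dimmer 18015 the same sign held for 50.6%. Of the 748 probe sets higher in untreated del337TR at an unadjusted p under 0.05 (1.66%), 460 were also higher with WY14643, or 61.5% against 55.6% of all probe sets. Of the 1058 that were lower (2.35%), 556 were also lower with WY14643, or 52.6% against 44.4% of all probe sets. The reverse reading started from 2363 probe sets higher in del337TR with WY14643 (5.25%), of which 1385 were also higher without it, or 58.6% against 47.8% of all. It went on with 1628 lower ones (3.61%), of which 1080 were also lower without WY14643, or 66.3% against 52.2% of all. The plot of both differences shows the cloud of bright probe sets with little tilt.

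**Figure D1:**
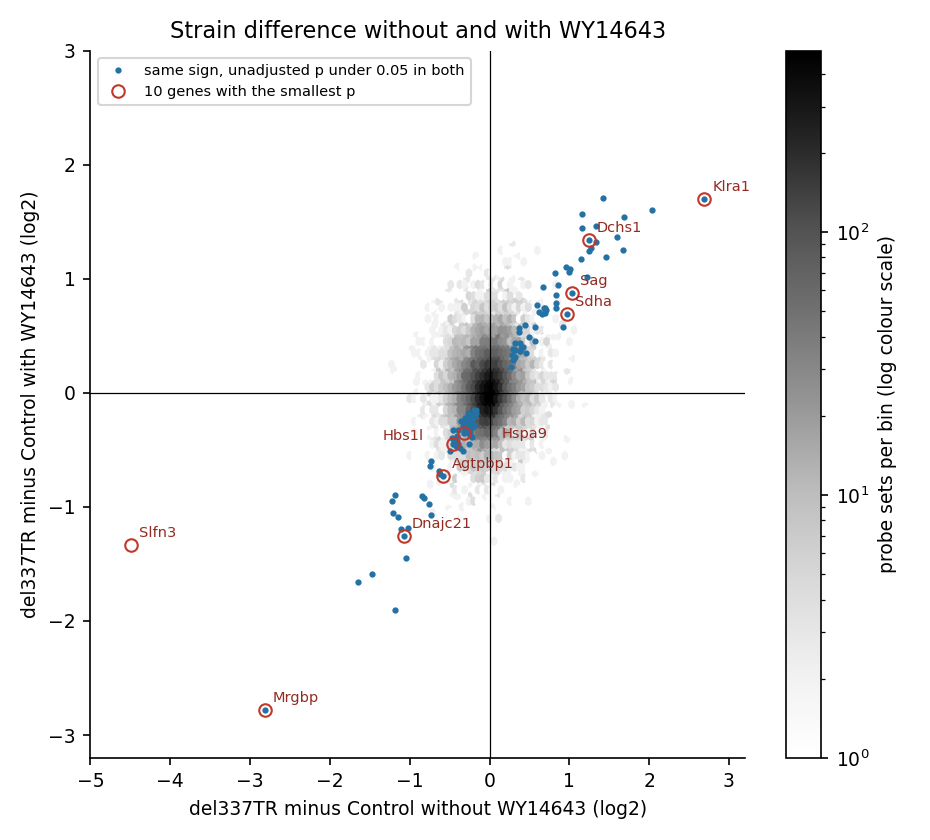
Strain difference on the log2 scale without WY14643 (horizontal) and with WY14643 (vertical). Grey bins count the 27022 probe sets above the 40th percentile of mean signal, blue points are the 124 probe sets with the same sign and an unadjusted p under 0.05 in both treatments, and red circles are the 10 genes with the smallest p over both treatments, of which Slfn3 lies farthest from the diagonal.

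The 10 genes with the smallest p are described first, although none passed the threshold. They were Hbs1l, Mrgbp, Slfn3, Agtpbp1, Dnajc21 and Hspa9, lower in del337TR, and Sdha, Dchs1, Klra1 and Sag, higher in del337TR. Their limma adjusted p ran from 0.342 to 0.54. In 9 of the 10 the sign was the same in both treatments with an unadjusted p under 0.05 in each, and Slfn3 was the exception. All 10 kept their sign without the 5 Control arrays that stood apart. These 10 genes were picked by their p over both treatments on all arrays, and both counts reuse arrays of that fit. The choice favours the same sign in each reading, so neither count tests agreement between treatments or independence from the 5 arrays. In 6 of the 10 the probe set lay at or below the 40th percentile of mean signal, where median standard errors were 0.355 against 0.116 for brighter probe sets.

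Hbs1l encodes a GTPase that frees stalled ribosomes. The leading of its probe sets had a lowest, median and highest signal of 175, 245 and 281 in untreated del337TR, against 289, 310 and 385 in untreated Control. With WY14643 the same values were 194, 236 and 286 in del337TR, against 253, 315 and 438 in Control. The strains did not overlap without WY14643 and overlapped with it. The difference was -0.45 ± 0.085 (SE, limma adjusted p = 0.342), and -0.45 in each treatment alone. It was -0.34 ± 0.089 without the 5 Control arrays.

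Agtpbp1 encodes a carboxypeptidase that trims glutamates from tubulin. Its leading probe set had signals of 76.1, 102 and 127 (lowest, median and highest) in untreated del337TR, against 116, 137 and 244 in untreated Control. With WY14643 they were 83.7, 99.6 and 140 in del337TR, against 105, 214 and 269 in Control. The strains overlapped in both treatments, and the 5 highest arrays were the 5 Control arrays that stood apart on Myh7. The difference was -0.65 ± 0.14 (SE, limma adjusted p = 0.54), with -0.58 without and -0.73 with WY14643, and -0.37 ± 0.12 without the 5 arrays. A brighter probe set of the gene split the same way, with 441 to 872 on del337TR arrays, against 1096 to 1351 on those 5 arrays and 617 to 728 on the other 9 Controls.

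Hspa9 encodes mortalin, the mitochondrial heat shock protein that helps to pull proteins into the organelle. The signal of its leading probe set was 309, 365 and 482 (lowest, median and highest) in untreated del337TR, against 428, 494 and 539 in untreated Control. With WY14643 it was 349, 378 and 426 in del337TR, against 349, 517 and 628 in Control. The ranges overlapped in both treatments. The difference was -0.34 ± 0.077 (SE, limma adjusted p = 0.54), and -0.25 ± 0.086 without the 5 Control arrays.

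Dchs1 encodes dachsous, a large cadherin of tissue polarity that shapes the mitral valve. Its signals were 33.4, 63.4 and 126 in untreated del337TR, against 8.3, 25.2 and 71.9 in untreated Control. With WY14643 they were 47.7, 60.4 and 121 in del337TR, against 8.1, 35.6 and 42.9 in Control. All 7 del337TR arrays lay above all 7 Control arrays with WY14643, and the ranges overlapped without it. The difference was 1.29 ± 0.30 (SE, limma adjusted p = 0.54), and 1.00 ± 0.30 without the 5 Control arrays.

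Mrgbp encodes a subunit of the NuA4 histone acetyltransferase complex, and its leading probe set was dim. The signals were 0.5, 4.6 and 23 in untreated del337TR, against 21.4, 52.8 and 72.5 in untreated Control. With WY14643 they were 0.4, 0.8 and 17.9 in del337TR, against 3.1, 7.6 and 21.4 in Control. The untreated Controls were the highest group, and the ranges overlapped in both treatments. The fitted difference was -2.80 ± 0.53 (SE, limma adjusted p = 0.342), but its size depends on signals near 1, which are too low to be read as levels. With a pseudocount of 16 added to the signals it was -0.85 (limma adjusted p = 0.385), and the gene's brighter probe set stood at 0.12. Without replicate 5 of del337TR with WY14643 it was -3.11 with a limma adjusted p of 0.0158, the only call made by leaving out 1 array.

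Slfn3 belongs to the schlafen family, known from the control of T cell growth, and its strain difference was larger without WY14643, though the interaction did not pass the adjusted threshold. Its signal was 0.6, 7.7 and 22.0 in untreated del337TR, against 57.1, 83.5 and 179 in untreated Control. With WY14643 it was 0.8, 1.0 and 13.1 in del337TR, against 2.6, 6.0 and 10.3 in Control. The groups were fully apart without WY14643 and overlapped with it. The log2 difference was -4.49 ± 0.71 without and -1.33 ± 0.71 with WY14643, and the interaction had a limma unadjusted p of 0.00397. Over both treatments it was -2.91 ± 0.58 (SE, limma adjusted p = 0.412), and -1.23 with a pseudocount of 16.

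The remaining leading genes were read by dim probe sets. Klra1, the natural killer cell receptor Ly49A, had signals of 2.6, 15.8 and 18.7 in untreated del337TR, against 0.4, 1.7 and 2.8 in untreated Control, and of 2.2, 11.1 and 20.3 in del337TR with WY14643, against 0.6, 1.4 and 16.9 in Control with WY14643. Its difference was 2.19 ± 0.50, and 0.46 with a pseudocount of 16. Dnajc21, a J-domain cochaperone of ribosome assembly, ran from 7.5 to 36.2 with a median of 21.3 on the 14 del337TR arrays, against 23.6 to 84.3 with a median of 48.8 on the 14 Control arrays, a difference of -1.16 ± 0.25. Sag, the arrestin of rod photoreceptors, ran from 22.8 to 67.3 with a median of 41.3 in del337TR, against 8.0 to 42.0 with a median of 21.9 in Control, a difference of 0.95 ± 0.22. The strains overlapped on each of these genes. Sdha, the flavoprotein of succinate dehydrogenase, had a median signal of 7.4 in del337TR, against 3.65 in Control, on its leading probe set (difference 0.83 ± 0.18, and 0.22 with a pseudocount of 16).

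**Figure D2:**
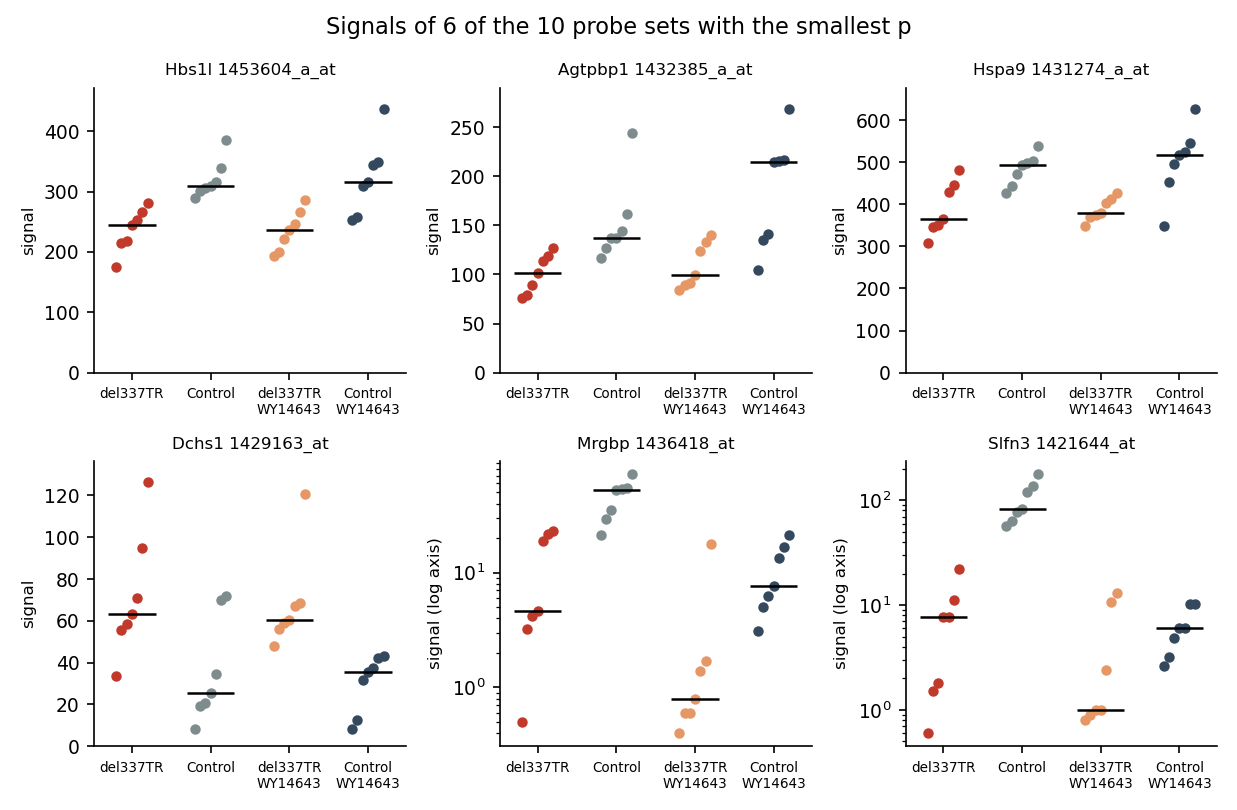
Signal on each of the 28 arrays for 6 of the 10 leading probe sets, in untreated del337TR, untreated Control, del337TR with WY14643 and Control with WY14643 (7 points each, bars are medians, log axes for Mrgbp and Slfn3). Hbs1l and Hspa9 lie lower in del337TR in both treatments, Dchs1 lies higher, and Slfn3 is high only in untreated Control.

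The leading genes were also read by other probe sets. Of the 10 genes 6 had more than 1 probe set, and the leading one was the brightest of its gene in 0 of these 6. Their 16 other probe sets had the sign of the leading one in 12 cases, and 1 of them, of Agtpbp1, did so with an unadjusted p under 0.05. Hbs1l read by its brightest probe set, with a mean signal of 946, differed by -0.01 ± 0.057. The brightest probe set of Sdha had a mean signal of 8091 and differed by -0.01 ± 0.060, against 0.83 on the leading one with a mean signal of 5.5. The brightest of Hspa9, with a mean signal of 4321, differed by -0.07 ± 0.058, and the brightest of Mrgbp by 0.12 ± 0.13. In 5 of the 6 genes, Agtpbp1 excepted, the leading probe set was thus the only one with an unadjusted p under 0.05. Which transcripts the dimmer probe sets read was not tested.

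**Figure D3:**
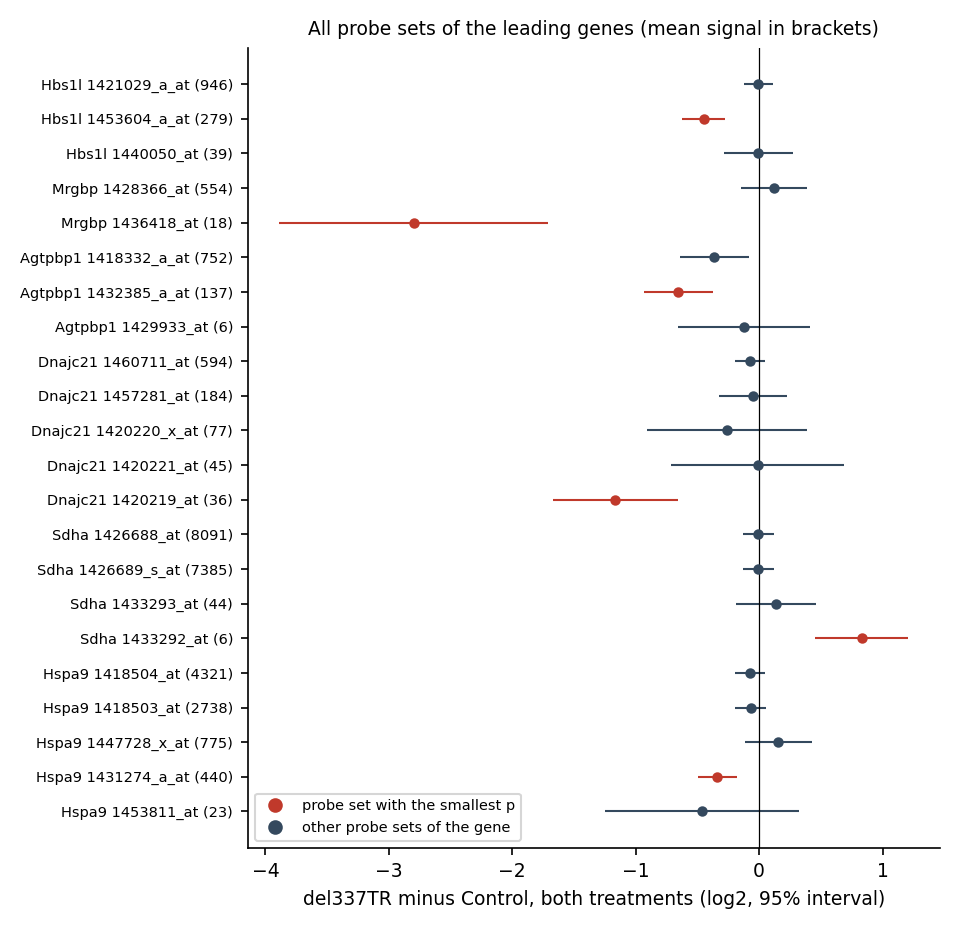
Strain difference over both treatments (log2, with 95% interval) for every probe set of the 6 leading genes that have several, with the mean signal in brackets. Red marks the probe set with the smallest p of its gene, and the brightest probe sets of Hbs1l, Sdha, Dnajc21 and Hspa9 lie between -0.07 and -0.01.

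A wider set of probe sets had the same direction in both treatments before adjustment. The p-values of both treatments share an estimate of the spread, so a low spread lowers both. The same sign with an unadjusted p under 0.05 in each treatment was found for 124 probe sets (0.275%), 55 higher in del337TR (0.122%) and 69 lower (0.153%), and opposite signs for 52 (0.115%). All 124 had a limma adjusted p between 0.342 and 0.548 over both treatments, and none passed within a treatment in both. Their absolute log2 differences ran from 0.155 to 2.80 with a median of 0.459. Of the 124, 92 had 1 gene symbol and named 91 genes, and 39 lay at or below the 40th percentile of mean signal. For 72 the gene had another probe set, and the brightest other one had the same sign in 47 cases, with an unadjusted p under 0.05 in 16. Without the 5 Control arrays that stood apart 89 probe sets met the same condition, of which 29 were among the 124, a share of 23.4% of the 124 and 32.6% of the 89.

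The following genes of this set were chosen after their values were seen, among the brighter ones with a known role, and none passed limma's adjusted threshold. Wipi2, a phosphoinositide-binding protein of autophagosome formation, was the only gene with 2 such probe sets, at -0.21 ± 0.063 and -0.41 ± 0.14. Slc2a4, the insulin-responsive glucose transporter GLUT4 and a known thyroid hormone target, had signals of 1978, 2255 and 2543 (lowest, median and highest) in untreated del337TR, against 1998, 2804 and 3123 in untreated Control. With WY14643 they were 1999, 2481 and 2745 in del337TR, against 2221, 3252 and 3610 in Control. The ranges overlapped in both treatments, and the difference on this probe set was -0.26 ± 0.080, and -0.12 ± 0.082 without the 5 Control arrays. The gene's brighter probe set stood at -0.15 ± 0.072. Srxn1, which repairs oxidised peroxiredoxins, differed by -0.66 ± 0.18 and by -0.55 ± 0.20 without the 5 arrays. Jak1, a cytokine receptor kinase, differed by -0.39 ± 0.10, with 215 as the del337TR median, against 276 as the Control median.

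Among the lower genes of the set, 5 that serve mitochondria were picked. Coa3, an assembly factor of cytochrome oxidase, had a median signal of 284 in del337TR, against 335 in Control (-0.31 ± 0.077). Opa1, the fusion protein of the inner membrane, had 486 in del337TR, against 590 in Control (-0.25 ± 0.077). Mto1, which modifies mitochondrial transfer RNA, differed by -0.28 ± 0.081 on this probe set and by 0.06 as the mean of its probe sets. With the 5 Control arrays left out Coa3 stood at -0.33 ± 0.091 and Opa1 at -0.17 ± 0.083. Pmpca, a subunit of the mitochondrial processing peptidase, differed by -0.22 ± 0.067, and Tufm, the mitochondrial elongation factor, by -0.19 ± 0.057. No list was drawn up for such genes, and the set also held mitochondrial genes that were higher, among them the carrier Slc25a41 (1.56 ± 0.37) and Sdha. Both were read by dim probe sets, with mean signals of 17.2 and 5.5, and the brightest probe set of Sdha stood at -0.01.

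Among the higher genes of the set, 6 were picked in the same way. Ckap4, an endoplasmic reticulum anchoring protein that also serves as a receptor, had signals of 930, 1295 and 1467 in untreated del337TR, against 833, 851 and 1178 in untreated Control, and of 1019, 1237 and 1774 in del337TR with WY14643, against 600, 794 and 1206 in Control with WY14643 (0.47 ± 0.11, and 0.28 ± 0.11 without the 5 arrays). Its 5 lowest arrays were the 5 Control arrays that stood apart, at 600 to 833. Sulf2, which trims heparan sulfate, differed by 0.37 ± 0.11, and those 5 arrays were again its lowest, at 610 to 780, and it stood at 0.15 ± 0.085 without them. Notch2, a receptor of cell fate, had a median signal of 148 in del337TR, against 105 in Control (0.51 ± 0.13, and 0.56 ± 0.14 without the 5 arrays). Pdgfc, a growth factor for fibroblasts, had 127 in del337TR, against 73.6 in Control (0.69 ± 0.23). Tmem176b, a membrane protein of immune cells, differed by 0.34 ± 0.087, and by 0.20 ± 0.085 without the 5 arrays. Saa3, an acute phase amyloid, had 77.1 in del337TR, against 45.4 in Control. Its difference was 1.03 ± 0.33, and 1.55 ± 0.30 without the 5 arrays (limma adjusted p = 0.641). On the lower side Cyp2b10, a drug-metabolising cytochrome, differed by -0.90 ± 0.24, and by -0.64 ± 0.26 without the 5 arrays, on a probe set that can read related family members.

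The same-way probe sets were about as frequent on the chromosome of Thrb as elsewhere. Thrb lies on chromosome 14 in RefSeq's GRCm38.p6 annotation, where 3 of 1216 placed probe sets met the same-way condition (0.247%), against 92 of 34735 over all chromosomes (0.265%). The share by chromosome ran from 0% on the Y chromosome and 0.0575% on chromosome 8 to 0.602% on chromosome 17, where 9 of 1496 did. Among the 50 protein-coding genes to each side of Thrb, 68 genes had 145 probe sets. Of these 15 had an unadjusted p under 0.05 (10.3%, against 7.61% of all probe sets). Limma called 0, with a lowest adjusted p of 0.547. The same-way condition was met by 0, a count that says little at the share of 0.275% over all probe sets. The genes around Thra were not read in this way, and no label says which receptor gene carries the deletion.

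The receptors themselves differed little. Thrb, the thyroid hormone receptor beta, had a signal of 93.5, 148 and 197 (lowest, median and highest) in untreated del337TR, against 132, 145 and 170 in untreated Control. With WY14643 it was 96.5, 151 and 173 in del337TR, against 109, 135 and 167 in Control. All groups overlapped, and the difference was -0.02 ± 0.11, with a sign that turned when single arrays were left out. Since no label says which receptor gene carries the deletion, the signal is no check on the strain label. Thra, the receptor alpha, was read by 3 probe sets at 0.21 ± 0.081, 0.10 ± 0.12 and -0.03 ± 0.16. The first, and brightest, had a median signal of 988 in del337TR, against 817 in Control, and differed by 0.14 ± 0.095 without the 5 Control arrays. Ppara, the receptor that WY14643 binds, was read by 3 probe sets at -0.28 ± 0.13, -0.19 ± 0.11 and -0.03 ± 0.14. Limma adjusted p of these 7 probe sets ran from 0.593 to 0.984.

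Genes that thyroid hormone is known to induce lay mostly lower in del337TR. Of 13 measured members 11 were lower and 2 higher, with a median of -0.196, against a median of 0.00909 over 18193 genes read by their brightest probe set. None passed limma's adjusted threshold, and 4 were lower with an unadjusted p under 0.05 (Ucp3, Thrsp, Hcn2 and Slc2a4), against 680 of all 18193 genes. The median was -0.0787 without WY14643 and -0.226 with it, and 8 of the 13 were lower in both treatments, against 4582 of the 18193 genes. Without the 5 Control arrays that stood apart 8 of the 13 were lower, 0 had an unadjusted p under 0.05, and the median was -0.0558.

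Ucp3, an uncoupling protein of the muscle mitochondrion that PPARalpha also induces, had a signal of 409, 544 and 712 in untreated del337TR, against 319, 874 and 1049 in untreated Control. In the treated groups it was 368, 576 and 945 in del337TR, against 546, 967 and 1604 in Control. The ranges overlapped in both treatments, and the difference was -0.65 ± 0.20 (SE, limma adjusted p = 0.547). Without the 5 arrays, which held 967 to 1604, it was -0.31 ± 0.20. Thrsp had a signal of 565, 742 and 826 in untreated del337TR, against 665, 829 and 1384 in untreated Control, and of 428, 703 and 846 in del337TR with WY14643, against 696, 1261 and 1970 in Control with WY14643. Its difference was -0.56 ± 0.16 (SE, limma adjusted p = 0.547), and -0.18 ± 0.11 without the 5 arrays.

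Hcn2, a pacemaker channel, had a signal of 86.3, 107 and 135 in untreated del337TR, against 105, 133 and 246 in untreated Control. With WY14643 it was 61.4, 118 and 148 in del337TR, against 103, 161 and 259 in Control. All 5 Control arrays that stood apart lay above all other arrays, at 161 to 259. The difference was -0.43 ± 0.15 (SE, limma adjusted p = 0.572), and -0.15 ± 0.13 without them. The classical targets of the contractile cell were near 0. Myh6, the fast alpha myosin heavy chain, differed by -0.03 ± 0.075, Atp2a2, the calcium pump, by 0.02 ± 0.076 with a sign that turned under quantile normalization and median centring, and Klf9, an early target in many tissues, by -0.03 ± 0.082. Hairless (Hr), a corepressor, stood at -0.43 ± 0.22 and Kcnd2 at -0.36 ± 0.18, and the 5 arrays were the highest on both. Without those arrays Hr stood at -0.06 ± 0.23, and the signs of Myh6, Klf9 and Kcnd2 turned, with Kcnd2 at 0.07.

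Of 8 genes that the hormone is known to repress, 7 were higher in del337TR and 1 lower, with a median of 0.0914, and 6 were higher with a median of 0.0409 without the 5 Control arrays. Myh7 and Thra were higher with an unadjusted p under 0.05, against 807 of all 18193 genes, and none of the 8 passed limma's adjusted threshold. Myh7 had a signal of 14572, 17465 and 19366 in untreated del337TR, against 3103, 14893 and 20992 in untreated Control. In the treated groups it was 14677, 18499 and 24981 in del337TR, against 3921, 6007 and 18817 in Control. The Control groups were split and the del337TR groups were not. The difference was 0.77 ± 0.27 (SE, limma adjusted p = 0.583), and 0.04 ± 0.094 without the 5 low arrays, which were chosen by this gene. Pln, the brake of the calcium pump, stood at 0.03 ± 0.067. Among 15 receptor partners, transporters and deiodinases, 10 were higher and 5 lower, with a median of 0.0479, and Ttr, the plasma carrier transthyretin, stood at 1.00 ± 0.50, but at -0.22 ± 0.18 without the 5 arrays. Its signal was 151 to 487 on del337TR arrays, against 4.6 to 62.6 on the 5 Control arrays and 237 to 512 on the other Controls.

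**Figure D4:**
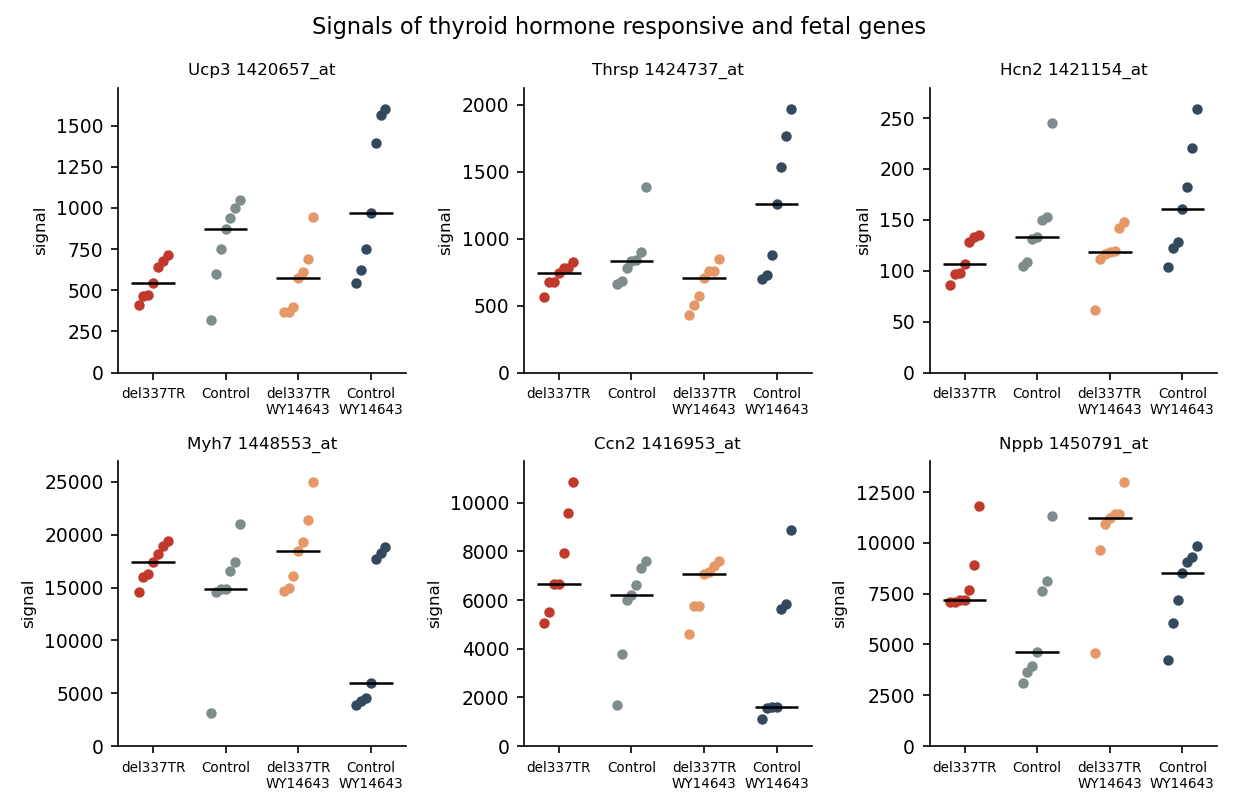
Signal on each of the 28 arrays for 6 heart genes in untreated del337TR, untreated Control, del337TR with WY14643 and Control with WY14643 (7 points each, bars are medians). The Control groups split into separate clusters on Myh7 and Ccn2, with 1 untreated and 4 treated Control arrays low, while all 14 del337TR arrays stay high.

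The list of fetal and hypertrophy genes, which a stressed ventricle expresses again, lay higher in del337TR on every measured member. All 16 were higher, 7 with an unadjusted p under 0.05, and the median was 0.327, with 0.193 without and 0.368 with WY14643. Over all genes 9543 of 18193 were higher and 807 higher with an unadjusted p under 0.05. Of the 16, 12 were higher in both treatments, against 5294 of the 18193 genes. None of the 16 passed limma's adjusted threshold. The 7 were Ccn2 (0.85 ± 0.28), Myh7, Nppa (0.54 ± 0.22), Nppb (0.48 ± 0.18), Tnni1 (1.10 ± 0.48), Xirp1 (0.40 ± 0.18) and Rcan1 (0.26 ± 0.12). Once the 5 Control arrays were left out 13 of 16 were higher, 0 had an unadjusted p under 0.05, and the median was 0.0964.

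Ccn2 had a signal of 5076, 6671 and 10847 in untreated del337TR, against 1684, 6219 and 7592 in untreated Control. With WY14643 it was 4591, 7088 and 7607 in del337TR, against 1095, 1613 and 8894 in Control. The median gap was thus small without WY14643 and wide with it, and without the 5 arrays the difference was 0.12 ± 0.15. Nppb, the B-type natriuretic peptide of the stretched ventricle, had a signal of 7067, 7191 and 11832 in untreated del337TR, against 3109, 4613 and 11301 in untreated Control. In the treated groups it was 4582, 11200 and 12987 in del337TR, against 4238, 8495 and 9852 in Control. It was spread over the Control arrays without the split of Myh7, and stood at 0.31 ± 0.20 without the 5 arrays. Nppa, the atrial natriuretic peptide, stood at 0.09 ± 0.15 without them. Tnni1, the slow skeletal troponin I, and Nppa are also made in atria or in the young heart. With an atrial score of Myl4, Myl7 and Sln as a covariate 14 of the 16 were higher with a median of 0.254. At an unadjusted p under 0.05, 7 were then higher and 1 lower. The score was built from atrial genes, and the 2 lists share members. Without the covariate, leaving out the members also on the atrial list left 13 of 13 higher with a median of 0.209. In bulk tissue more cells of a type and more RNA per cell cannot be told apart.

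Atrial markers leaned towards del337TR. Of 7 atrial markers 6 were higher in del337TR, with a median of 0.544, and again 6 without the 5 Control arrays, with a median of 0.237 and 0 at an unadjusted p under 0.05. Sln, the atrial regulator sarcolipin, stood at 2.30 ± 1.21 (2.83 ± 1.46 without those arrays), with a median signal of 2466 in del337TR, against 483 in Control. Its ranges overlapped, and the part of atrial RNA in the other lists was not tested beyond the covariate.

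Markers of fibroblasts, matrix genes and stress genes leaned the same way. All 9 fibroblast markers were higher in del337TR with a median of 0.214, and Pdgfra (0.37 ± 0.15), Tcf21 (0.26 ± 0.11) and Vim (0.23 ± 0.096) had an unadjusted p under 0.05. The summed signal of these markers had medians of 25605 in untreated del337TR, against 22997 in untreated Control, and of 26052 in del337TR with WY14643, against 23295 in Control with WY14643. Of 22 matrix genes, 21 were higher with a median of 0.127, and 1 (Col15a1, a basement membrane collagen, 0.36 ± 0.12, and 0.19 ± 0.11 without the 5 arrays) had an unadjusted p under 0.05. Over all 18193 genes 807 were higher and 680 lower at that level, and the matrix count was near the former share. Of 24 immediate early and heat shock genes, 20 were higher and 6 of them at an unadjusted p under 0.05, with a median of 0.194. Examples were Btg2, an antiproliferative early gene (0.36 ± 0.13), Egr1 (0.64 ± 0.26), Myc (0.62 ± 0.27) and the heat shock protein gene Hspa1b (0.49 ± 0.21), all of which respond within minutes to hours to stress or handling. None of these genes passed limma's adjusted threshold. Without the 5 Control arrays 0 members of the 3 lists had an unadjusted p under 0.05, with 8 of 9, 16 of 22 and 17 of 24 higher and medians of 0.11, 0.0624 and 0.0943. Endothelial markers were split, with 6 of 10 higher and 2 lower at an unadjusted p under 0.05, against 0 without the 5 arrays. Esam, a tight junction protein, stood at -0.28 ± 0.090, and at -0.18 ± 0.10 without them. Leukocyte markers were split too, with 7 of 12 higher but 5 of 12 after quantile normalization. At an unadjusted p under 0.05, 1 was higher and 1 lower, against 0 without the 5 arrays. The higher one was Csf1r, the macrophage growth factor receptor (0.19 ± 0.077, and 0.12 ± 0.085 without the 5 arrays). The lower one was Cd3e, a T cell marker (-0.84 to -0.52 with single arrays left out, and -0.33 ± 0.31 without the 5 arrays).

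**Figure D5:**
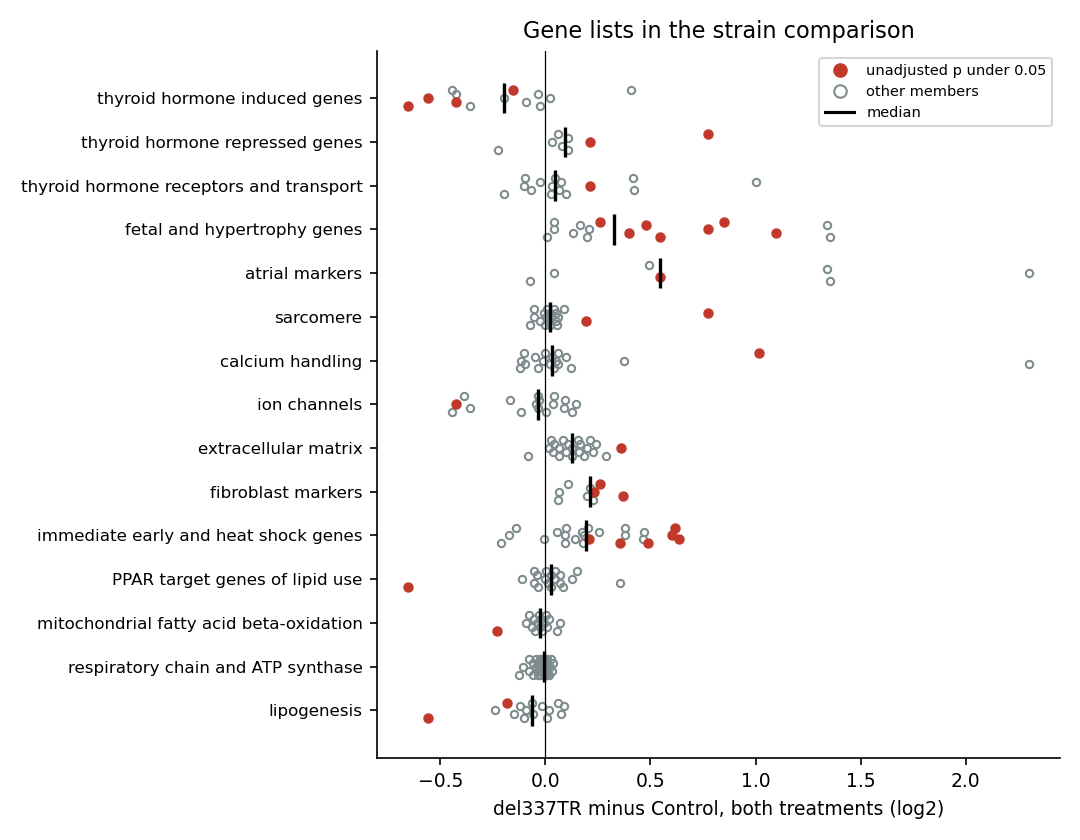
Strain difference over both treatments (log2) of each measured member of 15 gene lists, with filled red points for an unadjusted p under 0.05, open grey points for the others and a bar at each list's median. The 16 fetal and hypertrophy genes all lie above 0, 11 of the 13 thyroid hormone induced genes lie below 0, and the 40 respiratory chain genes lie within -0.127 and 0.035.

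Genes of fuel use, the main targets of PPARalpha, differed little between the strains. Of 19 PPAR targets of lipid uptake, storage and fuel switching, 12 were higher and 7 lower with a median of 0.0279. Ucp3, a lower one, alone had an unadjusted p under 0.05, against 680 lower of all 18193 genes. Pdk4, the kinase that shuts off pyruvate oxidation, stood at 0.03 ± 0.060 and Cd36, the fatty acid transporter, at 0.03 ± 0.058. Of 17 genes of mitochondrial beta-oxidation, 12 were lower with a median of -0.0248. The medians of these 2 lists were 0.00302 and -0.00479 without the 5 arrays. Cpt2, the inner membrane carnitine palmitoyltransferase, had a median signal of 2824 in del337TR, against 3226 in Control, and stood at -0.23 ± 0.084, but at -0.06 ± 0.072 without the 5 Control arrays. Of 40 genes of the respiratory chain and ATP synthase, 28 were lower and 12 higher, 0 had an unadjusted p under 0.05 and the median was -0.00742. That median was 0.0446 without WY14643 and -0.076 with it, and without the 5 arrays 35 of the 40 were higher, with a median of 0.0317. Quantile normalization left 4 of the 40 higher, with 3 lower at an unadjusted p under 0.05. In the main fit 680 of all 18193 genes were lower at that level. With an atrial covariate 25 of the 40 were higher, and 26 without the array least like each group. Of the 17 beta-oxidation genes 9 were higher with that covariate, and 2 after quantile normalization.

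Glucose and lipid synthesis genes held a few members with an unadjusted p under 0.05. Over all 18193 genes 807 were higher and 680 lower at that level. Of 21 genes of glycolysis, glucose uptake and pyruvate oxidation, 4 were lower (Dlat, Pdhx, Hk2 and Slc2a4) and 1 higher (Hk1) at that level. Dlat and Pdhx, parts of the pyruvate dehydrogenase core, stood at -0.19 ± 0.075 and -0.16 ± 0.066, and at -0.03 ± 0.057 and -0.08 ± 0.073 without the 5 arrays. Hexokinase 2, the insulin-regulated form, stood at -0.26 ± 0.11 and hexokinase 1 at 0.17 ± 0.077. None of the 21 had an unadjusted p under 0.05 once the 5 arrays were left out. Of 15 lipogenic genes 10 were lower, with Thrsp and Dgat1, the last enzyme of triglyceride synthesis (-0.18 ± 0.073, and -0.11 ± 0.077 without the 5 arrays), at an unadjusted p under 0.05. Without those arrays 8 of the 15 were higher with a median of 0.0159, and 0 were at that level. Of 16 genes of peroxisomal lipid metabolism 12 were lower with a median of -0.064, and of 19 glutathione and xenobiotic genes 12 were lower with a median of -0.0316. Of 15 citric acid cycle genes 10 were lower with a median of -0.0151, but 11 were higher with a median of 0.0253 without the 5 arrays, and 10 were higher with the atrial covariate. Without the 5 arrays the peroxisomal median was -0.0219. None of these passed limma's adjusted threshold.

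Electrical and calcium genes showed little beyond the targets already given. Of 17 ion channel genes, 10 were lower with a median of -0.0337. Only Hcn2, a lower one, had an unadjusted p under 0.05, against 680 lower of all 18193 genes. That direction turned without the 5 Control arrays, with 11 of the 17 higher and a median of 0.0838. Of these, 1 was at an unadjusted p under 0.05, against 1298 higher of all 45037 probe sets. Of 19 calcium handling genes 11 were higher with a median of 0.0312, and Fkbp1b, a stabiliser of the ryanodine receptor, stood at 1.02 ± 0.41 with a median signal of 29.2 in del337TR, against 16.5 in Control. Ryr2, the release channel itself, stood at -0.10 ± 0.070, but at 0.04 ± 0.063 without the 5 arrays. Of 8 smooth muscle and pericyte markers 3 were higher with a median of -0.015, but 5 with a median of 0.0866 without those arrays. Of 20 sarcomere genes 14 were higher with a median of 0.0222, and 19 with a median of 0.0412 without them.

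Immune gene lists were divided. Of 20 interferon-induced genes 7 were higher and 13 lower, with a median of -0.0527 and 0 at an unadjusted p under 0.05. On the other 23 arrays 12 of the 20 were higher, with a median of 0.0187. Of 14 major histocompatibility genes 8 were higher with a median of 0.0111, and 10 with a median of 0.0493 without those arrays. Of 8 schlafen genes 4 were higher and 4 lower, and their median was -0.192 without WY14643 and 0.112 with it. Slfn9 stood at -0.76 ± 0.32, with a median signal of 61.0 in del337TR, against 92.4 in Control, and Slfn2 at 0.34 ± 0.16. Reads of schlafen relatives on 1 probe set cannot be told apart.

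The number of arrays limited how small a difference could be seen. The 95% interval of the strain difference lay within a fold of 1.5 on either side for 21587 of the 27022 brighter probe sets (79.9%) and for 52.2% of all. It lay within a fold of 2 for 25916 of the brighter ones (95.9%) and for 77.9% of all. For most transcripts above the 40th percentile of signal, these data thus bound the average strain difference below a fold of 2, and for dim ones they often do not.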

How the data were processed

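The authors deposited linear intensity values for 45101 probe sets on each of 28 arrays. The submitters' processing notes name RMA, without a version, but the values are not logarithms and every array has a mean of 250.0 with 2% trimmed at each end, so they were treated as globally scaled signals. The software behind that form is not given in the sources used here.

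The 64 control probe sets were left out. Signals were floored at 0.1 and log2 transformed. For 45037 probe sets limma 3.58.1 in R 4.3.3 fitted strain and WY14643 without interaction to all 28 arrays (25 residual degrees of freedom), and group means (24) gave the differences within each treatment and the interaction. Tests were two-sided, with Benjamini-Hochberg adjustment over all probe sets and a threshold of 0.05. Symbols came from GEO's platform annotation, updated through RefSeq gene identifiers for 34741 of 34945 probe sets with 1 symbol, while 932 had several symbols and 9160 none.

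The comparison and the 31 gene lists were chosen with earlier results of these data known. Of 502 list entries 453 were matched, by the brightest probe set of each gene. Genes were named as the 10 with the smallest p, the 2 members of each list with the smallest p, and all probe sets of Thra, Thrb and Ppara. Others named were chosen after their values were seen. Same-numbered arrays had correlations of deviations from -0.123 to 0.191, with means per number from 0.00274 to 0.0579. Of the 28 arrays, 9 correlated best with their own number, and the array least like its group was replicate 7 in all 4 groups. The main fit did not use the replicate numbers, and whether same-numbered arrays shared a batch was not tested. Of 378 array pairs, 0 were identical. The fit was tested on simulated data.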

Additional observations from a re-analysis of the deposited data

Results flagged for a closer look

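In 12 of 96 groups of 7 arrays searched, for the probe sets given in full, 1 array lay farther from its nearest neighbour than Dixon's 95% limit allows on the log2 scale, a gap that chance gives in about 1 in 20 groups. Replicate 7 of the untreated Controls held the lowest Myh7, 3103, and the highest Thrsp, 1384, and is 1 of the 5 Control arrays that stood apart. Replicate 3 of the untreated Controls was lowest on 2 probe sets of Ppara, with 400.2 and 694. Replicate 5 of the untreated Controls was lowest on Klra1, with 0.4. Replicate 7 of Control with WY14643 was lowest on the dimmest Thra probe set, with 115. Among untreated del337TR arrays, replicate 5 was lowest on Dnajc21, with 8.9, and replicate 1 on the leading Sdha probe set, with 3.1. Among del337TR arrays with WY14643, replicate 5 was highest on Mrgbp, with 17.9, and on Dchs1, with 121. Replicate 7 was lowest there on Hcn2, with 61.4, and replicate 1 on Nppb, with 4582. No reason was tested for any of these.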

How the results depend on the processing

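The count of 0 probe sets past limma's threshold for strain over both treatments was also 0 with a pseudocount of 16, the filter at the 40th percentile, array weights, trend and robust settings, median centring, quantile normalization, the replicate block, a sex or an atrial covariate, gene means, the interaction term, without the array least like each group and without the 5 Control arrays with low Myh7. The lowest adjusted p ran from 0.13 (trend and robust) to 0.811 (without the least-like arrays), and was 0.458 with the replicate block. Leaving out each array in turn, the counts were 0 to 1 over both treatments, 0 to 1 for the same direction in both, 0 to 1 without WY14643, 0 to 0 with it and 0 to 0 for the interaction. The 1 over both treatments came without replicate 5 of del337TR with WY14643 (Mrgbp, adjusted p = 0.0158). Leaving out any of 23 arrays lost the call of Slfn3. That call without WY14643 also fell to a count of 0 with the filter, the replicate block, the sex covariate, the atrial covariate, without the least-like arrays and without the 5 Control arrays with low Myh7. The filter removes the dim Slfn3 probe set, and the other causes were not tested. The count with WY14643 was 5 without those 5 arrays (Crtc2, Tceanc2, Kcnmb4os2 and 2 unnamed probe sets, chosen after their values were seen), and that of the interaction was 1 (Slfn3) with the pseudocount of 16. The replicate block changed no other call.

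Signs turned for few named genes, none of which passed the threshold. Without the 5 Control arrays the differences were -0.22 for Ttr, 0.0193 for Cox7a1, 0.0716 for Kcnd2, 0.0356 for Ryr2, -0.0907 for Acta1, 0.0405 for Klf9 and 0.0697 for Myh6. Without the least-like arrays Myh6 stood at 0.000317. Gene means gave -0.00853 for Dcn, -0.14 for Atp2a2 and 0.064 for Mto1. Atp2a2 stood at -0.0049 with quantile normalization and -0.00909 with centring. Leaving out single arrays gave ranges across 0 for Thrb (-0.061 to 0.025), the dimmest probe set of Thra (-0.0841 to 0.031), that of Ppara (-0.087 to 0.0195), Klf9 (-0.0617 to 0.00123) and Atp2a2 (-0.0149 to 0.0484). The cause was not tested. Median centring moved the median of all probe sets to -0.0211, against 0.0106, so list medians that close to 0 have no settled sign. The remaining 1173 values of named genes under other settings and 2810 under left-out arrays kept their sign and stayed short of the threshold. Dim signals and 7 arrays per group limit what could be seen.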

Other observations

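Clock genes and skeletal muscle markers, which belong to no comparison above, also held members of some size in the strain comparison. Bhlhe40, a repressor of the circadian clock that is also induced by low oxygen, had a median signal of 279 in del337TR, against 171 in Control (0.55 ± 0.26), and 0.40 ± 0.31 without the 5 Control arrays that stood apart. Npas2, a clock activator, stood at 0.55 ± 0.37, and at 0.16 ± 0.40 without those arrays. Of 17 clock genes 11 were higher, with a median of 0.0405. Of 9 skeletal muscle markers 5 were higher, and Tnni2, the fast skeletal troponin I, stood at 0.66 ± 0.31 with a median signal of 17.9 in del337TR, against 13.0 in Control. Adipocyte markers were mixed, with 3 of 8 higher, and Lipe, the hormone-sensitive lipase, stood at -0.25 ± 0.10. Of 8 cardiomyocyte markers 5 were higher with a median of 0.00928, or 3 after quantile normalization, and all 8 without the 5 arrays. Of 3 erythroid markers 1 was higher, and of 4 sex-linked genes 1 was higher. None of these genes passed limma's adjusted threshold.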
